A study of Mus musculus with 9 samples.

Results

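A set of 10 genes of the glutathione and oxidative stress response was followed in mouse hippocampus, chosen by name: Slc7a11, Gclc, Gclm, Gsr, Gpx1, Nfe2l2, Hmox1, Nqo1, Txnrd1 and Srxn1. All 10 were found among the 14779 genes of the count table through their Ensembl identifiers in GENCODE M21, and all 10 passed the filter on low counts among the 14696 genes tested. The 9 libraries of polyadenylated RNA fall into 3 groups of 3. Mice exposed to chronic intermittent ethanol and given an antibody against interleukin 17A form the group CIE+IL17 Ab, ethanol-exposed mice given control immunoglobulin form CIE+IgG, and mice kept in air and given control immunoglobulin form Air+IgG. Every group thus received an antibody, and no group combined air with the antibody against interleukin 17A. The labels used here give no strain, sex or age.

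Cells meet oxidants with glutathione, a tripeptide built from cysteine, glutamate and glycine. Slc7a11 imports cystine, the ligase formed by Gclc and Gclm joins glutamate to cysteine, Gpx1 spends glutathione on peroxides, and Gsr restores it with NADPH. The transcription factor Nfe2l2 (Nrf2), held back by Keap1, switches on many of these genes and also Hmox1, Nqo1, Txnrd1 and Srxn1. In brain this programme is known mainly from astrocytes, and ethanol metabolism produces oxidants.

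Library totals ran from 7372658 to 11894628 estimated counts. The summed level of 9 matched genes of a 10-gene list for thalamus and habenula was 697 to 1341 CPM (counts scaled to library size) in CIE+IL17 Ab, 166 to 285 CPM in CIE+IgG, against 146 to 182 CPM in Air+IgG, so its groups do not overlap wherever CIE+IL17 Ab is compared. Its first-listed gene Tcf7l2 averaged 178 ± 52.9 CPM in CIE+IL17 Ab, 13.1 ± 12.1 CPM in CIE+IgG, while Air+IgG had 6.18 ± 0.798 CPM (SD, n = 3). Genes of CA1 pyramidal neurons, which mark hippocampus, summed to 335 to 520 CPM in CIE+IL17 Ab, 604 to 904 CPM in CIE+IgG, against 852 to 953 CPM in Air+IgG. The antibody therefore cannot be told apart from this difference in tissue markers. CIE+IL17 Ab replicate 1 and Air+IgG replicate 2 stand apart through Lars2, with 495056 and 593544 counts of this gene against at most 2167 in any other library. The labels also carry a number of unstated meaning, 37 to 39 in 1 library of each group and 54 to 60 in the other 6, which was treated as a possible batch. In bulk tissue, fewer cells of a type and less RNA per cell cannot be told apart.

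Per kilobase of exon, the 10 genes spanned the range from abundant to scarce (CPM divided by the length of all annotated exons, mean ± SD over 9 libraries). Srxn1, the sulfiredoxin that repairs overoxidised peroxiredoxins, stood highest at 24.4 ± 3.27 CPM per kb, and Gpx1 followed at 23.4 ± 3.51 CPM per kb. Gclc, the catalytic subunit of glutamate-cysteine ligase, had 18.9 ± 1.23 CPM per kb. These levels lay at percentiles 88.1, 87.4 and 83.7 of all tested genes. Gsr, the glutathione reductase, had 10.5 ± 1.34 CPM per kb. The next 4 genes lay close together, with Txnrd1 at 7.83 ± 0.715, Gclm at 7.83 ± 1.10, Slc7a11 at 7.12 ± 2.26 and Nfe2l2 at 6.56 ± 0.743 CPM per kb. Nqo1, a quinone reductase, had 4.72 ± 1.77 CPM per kb, and Hmox1, the inducible haem oxygenase, was lowest at 2.19 ± 0.573 CPM per kb, percentile 23.9. Only between Gclc and Gsr did neighbours in this order separate in all 9 libraries, the lowest Gclc value being 17.2 and the highest Gsr value 12.6 CPM per kb. Which transcripts were in use is not known, so the order holds for the annotated exon length only.

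**Figure D1:**
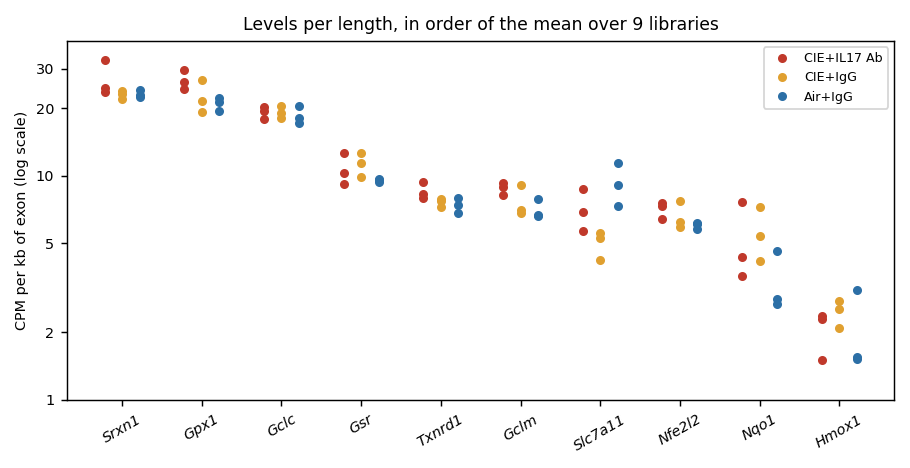
Level of each gene per kilobase of exon (CPM per kb, log scale) in the 9 libraries, coloured by group and ordered by the mean over all libraries. Srxn1 and Gpx1 are highest at 24.4 and 23.4 CPM per kb and Hmox1 is lowest at 2.19 CPM per kb; the CIE+IgG points of Slc7a11 all lie under its Air+IgG points.

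None of the 10 genes passed an adjusted p of 0.05 in any comparison by edgeR's quasi-likelihood test, and none did in DESeq2 or limma-voom. Between CIE+IgG and Air+IgG the test called 0 of 10, beside 0% of all tested genes. Between CIE+IL17 Ab and CIE+IgG it called 0 of 10, beside 3.18% of all genes, and between CIE+IL17 Ab and Air+IgG 0 of 10, beside 13.5%. At an unadjusted p under 0.05 there was 1 gene for ethanol against air (2.76% of all genes), 1 for antibody against CIE+IgG (22.3%) and 3 for antibody against air (32%). The groups did not overlap for 2, 2 and 4 of the 10 genes in these comparisons, beside 9.44%, 25.9% and 35.3% of all genes. By direction, 1 gene of the 10 was higher and 1 lower without overlap for ethanol against air (4.64% and 4.8% of all genes), 2 were higher and 0 lower for antibody against CIE+IgG (12.7% and 13.2%), and 4 were higher and 0 lower for antibody against air (17.3% and 18.1%). The log2 fold change was above 0 for 8, 7 and 9 of the 10 genes, beside 47.9%, 52.2% and 51.6% of all genes. Their median was 0.11, 0.14 and 0.22, beside -0.01, 0.02 and 0.01 over all genes. CIE+IgG replicate 3 was the highest library of its group for every gene of the 10 except Slc7a11. Leaving out single libraries, the lowest log2 fold changes for ethanol against air were -0.005 for Gclc, -0.026 for Gclm, -0.003 for Txnrd1 and -0.046 for Gpx1. The 3 comparisons share libraries and are not independent of each other.

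The precision differed between the genes. For 7 of the 10 genes the 95% interval of the fold change stayed within 1.5-fold in either direction for ethanol against air, and for the same 7 genes for antibody against CIE+IgG. The exceptions in both were Slc7a11, Hmox1 and Nqo1. For antibody against air, 5 genes stayed within that bound, and Gclm and Gpx1 joined the exceptions. Across all 9 libraries the spread of log2 CPM was smallest for Gclc, an SD of 0.09, and largest for Nqo1, an SD of 0.52, where the median gene had 0.23.

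**Figure D2:**
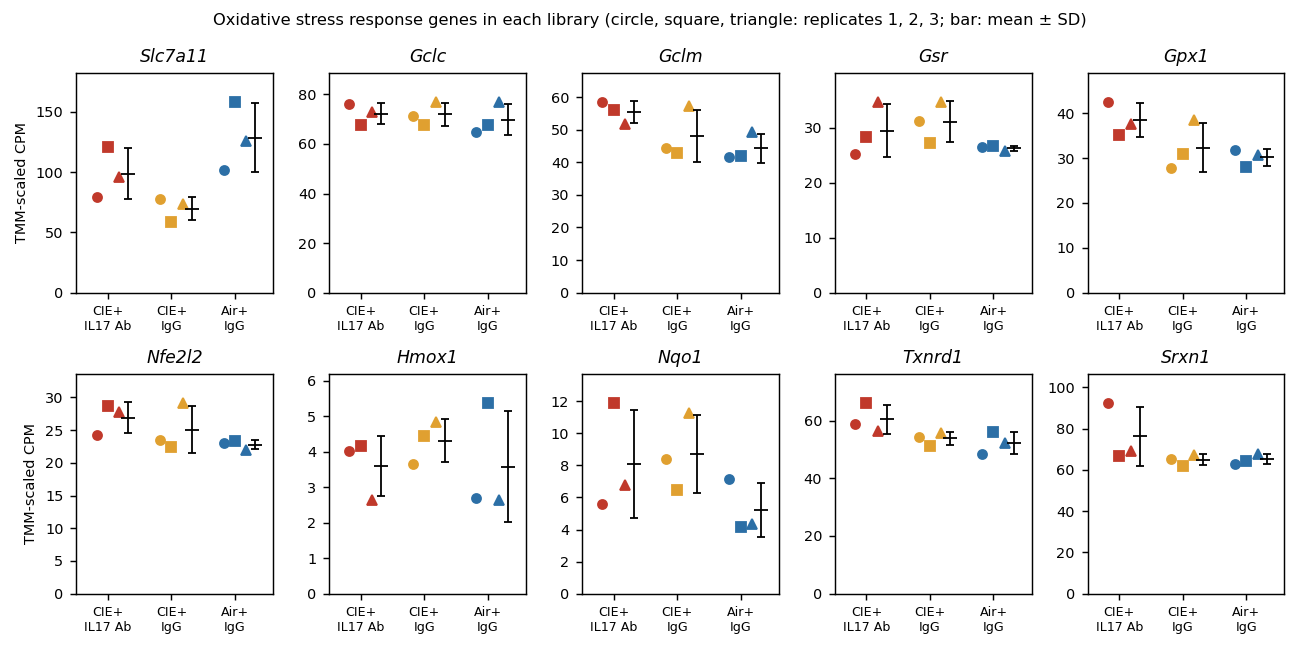
TMM-scaled CPM of each gene in every library, by group, with replicates 1, 2 and 3 as circle, square and triangle and the group mean ± SD (n = 3) as a bar; each panel starts at 0. Slc7a11 is at 58.6 to 77.5 CPM in CIE+IgG, against 102 to 158 CPM in Air+IgG, while Gclc lies between 64.8 and 77.0 CPM in all 9 libraries.

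Slc7a11, the cystine-importing subunit of the cystine-glutamate exchanger, had the smallest p of the 10 genes for ethanol against air. It is encoded on the minus strand at chr3:49892526-50443614 (GRCm38). Its estimated counts carry decimals in all 9 libraries, so part of its reads may have been divided between genes or placed in several positions. Its level was 77.5, 58.6 and 73.3 CPM in CIE+IgG replicates 1 to 3, against 102, 158 and 126 CPM in Air+IgG replicates 1 to 3. All 3 CIE+IgG libraries thus lay under all 3 Air+IgG libraries. The CIE+IL17 Ab libraries had 79.1, 121 and 96.2 CPM, each above every CIE+IgG library and overlapping the Air+IgG range. The fitted fold change for ethanol against air was 0.543, with a 95% interval of 0.396 to 0.745 (log2 fold change -0.88, standard error 0.20). Its unadjusted p of 0.00186 was at rank 9 of 14696 genes, and it did not pass over all genes (edgeR adjusted p = 1, DESeq2 adjusted p = 0.0798). In the 6 libraries with label numbers 54 to 60 the log2 fold change was -0.93 (edgeR adjusted p = 1), and without the 2 Lars2-rich libraries it was -0.71.

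For antibody against CIE+IgG, the log2 fold change of Slc7a11 was 0.50, standard error 0.20 (edgeR adjusted p = 0.185), 0.36 in the libraries numbered 54 to 60 and 0.32 without CIE+IL17 Ab replicate 2. For antibody against air it was -0.38, standard error 0.20 (edgeR adjusted p = 0.229), and -0.07 without the 2 Lars2-rich libraries. Slc3a2, the heavy chain that carries Slc7a11 to the cell surface, had log2 fold changes of -0.06 for ethanol against air, 0.03 for antibody against CIE+IgG and -0.04 for antibody against air. The fitted standard error of Slc3a2 was 0.13 in each. The partner chain thus had values near 0 in all 3 comparisons, though the difference between both genes was not tested.

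**Figure D3:**
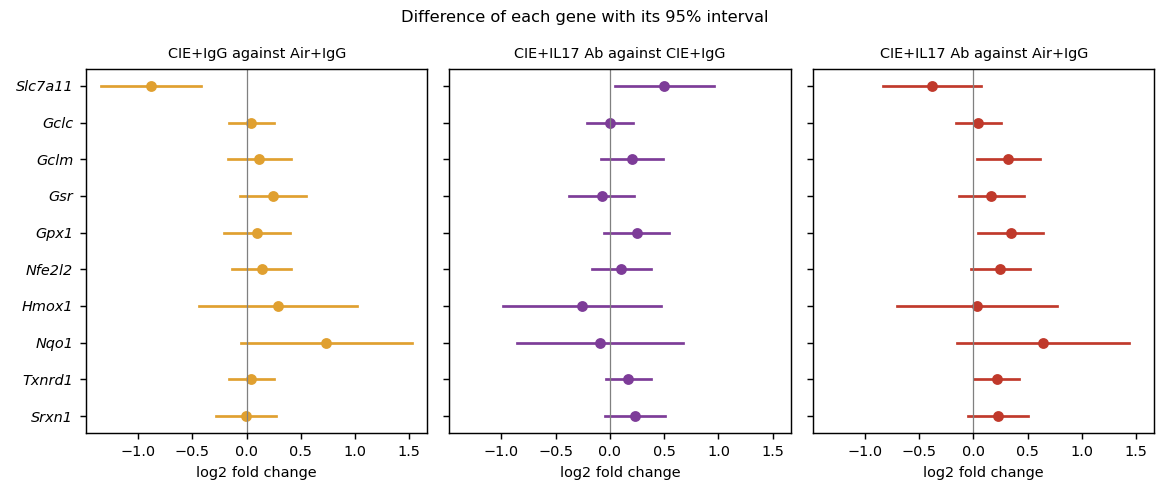
Fitted log2 fold change of each gene (point) with its 95% interval (line) in the 3 comparisons, from the edgeR fit of all 9 libraries. Slc7a11 is at -0.88 for ethanol against air with an interval below 0, and the intervals of Gclc are narrow around 0 in every panel.

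Markers of the meninges, the membranes around the brain, moved with Slc7a11. A list of 12 meningeal fibroblast genes, all 12 found and none at 0 in any library, summed to 450, 729 and 615 CPM in CIE+IL17 Ab replicates 1 to 3. It summed to 460, 303 and 537 CPM in CIE+IgG, against 767, 1182 and 857 CPM in Air+IgG. The library with the highest sum and the highest Slc7a11 was Air+IgG replicate 2 in both cases, and CIE+IgG replicate 2 was lowest in both. A large part of these sums came from a single gene, Ptgds, at 893 CPM in Air+IgG replicate 2 and 147 CPM in CIE+IgG replicate 2. Over the 9 libraries the 5 genes whose log2 CPM was most like that of Slc7a11 were Aldh1a2, a retinaldehyde dehydrogenase (Pearson r = 0.953), the organic anion transporter Slc22a6 (r = 0.946), the prostaglandin D synthase Ptgds (r = 0.939), Arhgap29 (r = 0.936) and the GABA transporter Slc6a13 (r = 0.935). These coefficients describe 9 libraries that share the 3 groups, and no p is given for them. Of the 5 genes, 4 are in the meningeal list, which was drawn up with earlier results of these libraries known. The median log2 fold change of the 12 meningeal genes for ethanol against air was -1.34, beside -0.01 over all tested genes. The list holds Slc22a6, Gjb2 and Ptgds, at p ranks 1, 3 and 4 of this comparison. Of the 12 genes, 11 were below 0 and none passed. Igf2 was above 0, at 0.35, and Lum and Col1a1 were at -0.11 and -0.52. Because the genes of the list were chosen with such results known, neither its median nor the likeness to Slc7a11 is independent evidence. The part of meningeal tissue in the Slc7a11 difference was not tested. Astrocyte genes, the other known source in brain, summed to 6863 to 7734 CPM in CIE+IgG, against 7674 to 7858 CPM in Air+IgG. The median log2 fold change of the 8 astrocyte genes was -0.03, with 5 below 0, and the lower sum came from Slc1a2, a glutamate transporter, at a mean of 5177 CPM in CIE+IgG, against 5768 CPM in Air+IgG. Gfap, Slc1a3 and S100b, the astrocyte genes above 0, had values of 0.12, 0.08 and 0.14 on the log2 scale. Gja1 was at -0.21, with all CIE+IgG libraries under all Air+IgG libraries. Slc1a2, Aqp4, Aldoc and Aldh1l1 were at -0.16, -0.04, -0.04 and -0.02. The part of astrocytes in the Slc7a11 difference was not tested either.

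**Figure D4:**
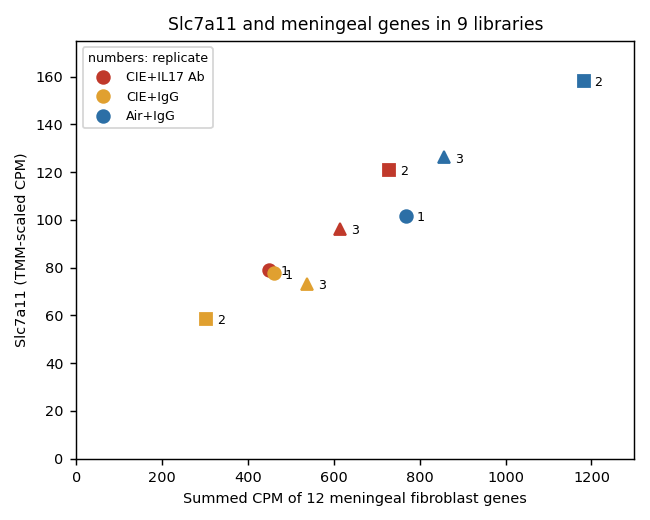
Slc7a11 (TMM-scaled CPM) against the summed CPM of 12 meningeal fibroblast genes in the 9 libraries, coloured by group and marked by replicate; both axes start at 0. Air+IgG replicate 2 is highest on both axes at 158 and 1182 CPM, and CIE+IgG replicate 2 is lowest at 58.6 and 303 CPM. Ptgds alone makes up 893 and 147 CPM of these sums.

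The 250 bases before the start of Slc7a11 are shown because it is the gene of the set with the smallest p for ethanol against air. They span chr3:50443614-50443863 on the minus strand (RefSeq, GRCm38.p6). The capitals mark the core of the response element that binds C/EBP and Atf4, a transcription factor of amino acid shortage, spelled TGATGNAA and searched on both strands.
Slc7a11 promoter: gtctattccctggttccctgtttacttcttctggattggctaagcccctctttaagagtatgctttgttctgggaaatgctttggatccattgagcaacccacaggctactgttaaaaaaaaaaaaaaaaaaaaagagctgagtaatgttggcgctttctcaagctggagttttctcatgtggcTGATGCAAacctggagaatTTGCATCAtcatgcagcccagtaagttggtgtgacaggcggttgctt
The core occurs on the gene's own strand 66 bases before the start and, on the other strand, 47 bases before it. It was found in 1 of 7 genes of the set with a promoter in the RefSeq table and in 2.56% of 11336 genes of the count table. A match of letters describes the sequence and does not show that a factor binds.

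The core of the antioxidant response element to which Nfe2l2 binds was searched in the same way, spelled TGACNNNGC on both strands in the 250 bases before each start. It was found in 3 of the 7 genes with a RefSeq promoter, Nfe2l2, Gclm and Txnrd1, and in 13.8% of 11336 genes of the count table. Hmox1, Gclc and Gsr had no entry. Windows of up to 30 bases on each side are given with the core in capitals, for Nfe2l2 at chr2:75704865-75704913 (minus strand), Gclm at chr3:122245393-122245461 (plus strand) and the second of 3 Txnrd1 starts at chr10:82859084-82859152 (plus strand).
Nfe2l2: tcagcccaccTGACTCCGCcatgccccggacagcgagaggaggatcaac
Gclm: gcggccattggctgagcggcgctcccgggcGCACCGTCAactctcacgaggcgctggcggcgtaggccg
Txnrd1: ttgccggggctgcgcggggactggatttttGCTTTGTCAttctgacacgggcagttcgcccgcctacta
The Nfe2l2 core reads forward 240 bases before the start, and the Gclm and Txnrd1 cores lie on the opposite strand, 134 and 92 bases before their starts. With this spelling none was found in the windows of Slc7a11, Nqo1, Srxn1 and Gpx1, which says only that these letters are not in those 250 bases.

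The subunits of glutamate-cysteine ligase differed in how they varied. Gclc (chr9:77754535-77794485) averaged 72.2 ± 4.30 CPM in CIE+IL17 Ab, 72.1 ± 4.64 CPM in CIE+IgG, while Air+IgG had 69.9 ± 6.36 CPM (SD, n = 3). Its fold change was 1.03 for ethanol against air (95% interval 0.893 to 1.19), and for antibody against CIE+IgG the interval was 0.866 to 1.16. Gclm, the modifier subunit (chr3:122245557-122270732), had 58.5, 55.96 and 51.7 CPM in CIE+IL17 Ab, 44.2, 42.7 and 57.2 CPM in CIE+IgG, and 41.5, 42.0 and 49.3 CPM in Air+IgG. All 3 CIE+IL17 Ab libraries lay above all Air+IgG libraries, whereas CIE+IgG replicate 3 reached the antibody range. The log2 fold change of Gclm for antibody against air was 0.32, standard error 0.13 (edgeR adjusted p = 0.123), and it was 0.24 without the 2 Lars2-rich libraries. Per kilobase, the Gclc level divided by the Gclm level was 2.18 ± 0.172 in CIE+IL17 Ab, 2.53 ± 0.247 in CIE+IgG and 2.64 ± 0.0526 in Air+IgG (SD, n = 3). CIE+IgG replicate 3, at 2.25, lay within the CIE+IL17 Ab range of 2.02 to 2.36. The ratio was not tested. Exons of Gclm overlap 2 other annotated genes, Gm17494 on the opposite strand and the pseudogene Gm6061 on the same strand. The Gclm counts also carry decimals, so part of its reads may have been divided between genes or placed in several positions. No exon of another annotated gene overlaps those of Slc7a11.

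In the use and recycling of glutathione, Gpx1 and Gsr showed different orders of the groups. Gpx1, the selenium-dependent peroxidase of the cytosol (chr9:108338903-108340343), had 42.5, 35.2 and 37.5 CPM in CIE+IL17 Ab, 27.7, 30.9 and 38.4 CPM in CIE+IgG, and 31.9, 28.1 and 30.7 CPM in Air+IgG. The antibody libraries lay above all air libraries, and CIE+IgG replicate 3 again lay within the antibody range. For antibody against air the log2 fold change was 0.34, standard error 0.13 (edgeR adjusted p = 0.115), and 0.22 without the 2 Lars2-rich libraries. Gsr (chr8:33652523-33698163) had 31.3, 27.3 and 34.7 CPM in CIE+IgG, against 26.4, 26.6 and 25.8 CPM in Air+IgG. These groups did not overlap, yet the log2 fold change of 0.24 had a standard error of 0.13 and did not pass (edgeR adjusted p = 1). Without CIE+IgG replicate 3 it was 0.16. The antibody libraries had 25.3, 28.3 and 34.7 CPM of Gsr and overlapped both other groups.

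Oligodendrocyte genes were high in the libraries in which Gclm and Gpx1 were high. The 7 genes of that list, all found, summed to 7234, 7185 and 5926 CPM in CIE+IL17 Ab, 4415, 5301 and 7023 CPM in CIE+IgG, and 4418, 3869 and 4131 CPM in Air+IgG. CIE+IgG replicate 3, with 57.2 CPM of Gclm and 38.4 CPM of Gpx1, was also the CIE+IgG library highest in this sum. It held 1278 CPM of striatal genes, against 247 and 248 CPM in the other CIE+IgG libraries. Striatal genes were also high in CIE+IL17 Ab replicate 3, at 809 CPM, which had the lowest Gclm of its group, 51.7 CPM. Of the 7 oligodendrocyte genes, 5 rose for antibody against air, beside 6.83% of all genes. The pattern was not particular to oligodendrocyte genes. The thalamus and habenula sum was also highest in the 3 CIE+IL17 Ab libraries and, among the rest, in CIE+IgG replicate 3, at 285 CPM. Endothelial genes summed to 330 to 372 CPM in CIE+IL17 Ab, 279 to 303 CPM in CIE+IgG and 252 to 317 CPM in Air+IgG. CIE+IgG replicate 2 had a higher oligodendrocyte sum than replicate 1 but less Gclm. The part of any of these tissues in the Gclm and Gpx1 values was not tested.

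Nfe2l2, the regulator itself (chr2:75675513-75704641), varied little. Its level was 24.3, 28.7 and 27.7 CPM in CIE+IL17 Ab, 23.5, 22.5 and 29.2 CPM in CIE+IgG, and 23.1, 23.3 and 21.97 CPM in Air+IgG. The antibody libraries all lay above the air libraries, the log2 fold change being 0.24, standard error 0.12 (edgeR adjusted p = 0.198). For ethanol against air it was 0.14, standard error 0.12, and in the libraries numbered 54 to 60 it was -0.01. The genes most like Nfe2l2 in log2 CPM over the 9 libraries were the cholesterol exporter Abca1 (Pearson r = 0.986), the gene with identifier ENSMUSG00000078667, which had no symbol in the annotation used (r = 0.97), the kinase Sik1 (r = 0.964), the vesicular monoamine transporter Slc18a2 (r = 0.962) and 2610301B20Rik (r = 0.961). Messenger RNA level does not report the activity of Nfe2l2, which is known to be set largely by the stability of its protein.

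Of the genes that Nfe2l2 is known to switch on, Nqo1 had the widest spread. It is encoded at chr8:107388225-107403206 and had 5.56, 11.9 and 6.75 CPM in CIE+IL17 Ab, 8.38, 6.44 and 11.3 CPM in CIE+IgG, and 7.15, 4.17 and 4.36 CPM in Air+IgG. Each group overlapped the others. The fold change for ethanol against air was 1.67 with a 95% interval of 0.964 to 2.88 (edgeR adjusted p = 1), and the log2 fold change of 0.74 was 0.38 in the libraries numbered 54 to 60. Without Air+IgG replicate 1 it was 1.03, and without CIE+IgG replicate 3 it was 0.50. Genes of the choroid plexus, the tissue that makes cerebrospinal fluid, were high and low in several of the same libraries as Nqo1. The 8 genes of that list, all found and none at 0, summed to 67.5, 7158 and 5779 CPM in CIE+IL17 Ab replicates 1 to 3, 4987, 3020 and 5663 CPM in CIE+IgG, and 3760, 513 and 2389 CPM in Air+IgG. CIE+IL17 Ab replicate 2 was highest in both, and Air+IgG replicate 2 was low in both. Other libraries did not match. CIE+IL17 Ab replicate 1 had the lowest sum, yet its Nqo1 of 5.56 CPM was above that of Air+IgG replicates 2 and 3. CIE+IL17 Ab replicate 3 had a sum of 5779 CPM, yet its Nqo1 of 6.75 CPM was under the 7.15 CPM of Air+IgG replicate 1. All 8 had a log2 fold change above 0 for ethanol against air, with a median of 1.03, and none passed. The part of choroid plexus in the Nqo1 values was not tested. The standard errors of Nqo1 and Hmox1 for ethanol against air, 0.35 and 0.32, were the largest of the 10 genes, and their totals over the 9 libraries, 653 and 324 counts, were the lowest. Hmox1 (chr8:75093621-75100589) had 4.03, 4.15 and 2.64 CPM in CIE+IL17 Ab, 3.65, 4.45 and 4.85 CPM in CIE+IgG, and 2.71, 5.38 and 2.65 CPM in Air+IgG. Its 95% interval for ethanol against air ran from 0.737-fold to 2.03-fold. The fitted log2 fold change was 0.29, and it became 0.68 when Air+IgG replicate 2 was left out and 0.11 when replicate 3 was.

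Txnrd1, the selenium-containing thioredoxin reductase of the cytosol (chr10:82833951-82897712), had 58.8, 66.1 and 56.5 CPM in CIE+IL17 Ab, 54.5, 51.3 and 55.7 CPM in CIE+IgG, and 48.4, 56.1 and 52.2 CPM in Air+IgG. The antibody libraries lay above all others, by a log2 fold change of 0.17 against CIE+IgG (edgeR adjusted p = 0.313) and 0.21 against air (adjusted p = 0.144), each with a standard error of 0.09. Without CIE+IL17 Ab replicate 2 these values were 0.09 and 0.14. Srxn1 (chr2:152105516-152111376) had 92.6, 66.8 and 69.4 CPM in CIE+IL17 Ab, 65.4, 62.0 and 67.4 CPM in CIE+IgG, and 63.1, 64.6 and 67.8 CPM in Air+IgG. The value of CIE+IL17 Ab replicate 1 was the highest and came from a Lars2-rich library. Without that library the log2 fold change of Srxn1 for antibody against CIE+IgG was 0.07, where it was 0.23 with it (edgeR adjusted p = 0.306).

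A further 6 lists of 86 genes of the same pathways were read from the same fit. All 86 were tested. For ethanol against air none passed, beside 0% of all genes, and 2 had an unadjusted p under 0.05, beside 2.76% of all genes, so their share was near the background. These were the glutathione transferases Gstk1, at 8.81 ± 0.520 CPM in CIE+IgG, against 6.48 ± 0.595 CPM in Air+IgG, and Gstm1, at 176 ± 20.6 CPM in CIE+IgG, against 143 ± 4.57 CPM in Air+IgG (SD, n = 3). Gstm1 belongs to a family of near-identical copies, so its value is uncertain. Of the 86 genes, 54 had a log2 fold change above 0, beside 47.9% of all genes, with a median of 0.04 beside -0.01 over all genes.

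For antibody against CIE+IgG, 1 of the 86 genes rose, beside 1.78% of all genes, and 1 fell, beside 1.41%. Pgd, the phosphogluconate dehydrogenase that makes NADPH, had 24.3, 25.0 and 24.9 CPM in CIE+IL17 Ab, against 18.8, 18.1 and 18.2 CPM in CIE+IgG. The groups were tight and apart, with a log2 fold change of 0.43 (standard error 0.10, edgeR adjusted p = 0.0499). Msra, which reduces oxidised methionine, had 14.0, 18.5 and 24.3 CPM in CIE+IL17 Ab, against 42.6, 44.5 and 29.7 CPM in CIE+IgG. It fell by 1.03 on the log2 scale (standard error 0.22, edgeR adjusted p = 0.046). The call of Pgd was lost without each of the 9 libraries in turn, with adjusted p between 0.0622 and 0.191. The call of Msra was lost without every library except CIE+IL17 Ab replicate 3 and CIE+IgG replicate 3, with adjusted p up to 0.191, and both calls were lost in the libraries numbered 54 to 60.

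For antibody against air, 5 of the 86 genes rose, beside 6.83% of all genes, and 2 fell, beside 6.71%. Of the 5, 3 are enzymes of NADPH supply of 9 in that list. G6pdx, the glucose-6-phosphate dehydrogenase, had 63.8, 48.8 and 41.2 CPM in CIE+IL17 Ab, against 28.6, 23.7 and 31.3 CPM in Air+IgG, a log2 fold change of 0.87 (standard error 0.17, edgeR adjusted p = 0.0174). Tkt, the transketolase, averaged 197 ± 21.3 CPM in CIE+IL17 Ab and 147 ± 15.1 CPM in Air+IgG (adjusted p = 0.0409), and Pgd 24.7 ± 0.353 CPM in CIE+IL17 Ab and 19.4 ± 1.89 CPM in Air+IgG (adjusted p = 0.0448). The others were Mgst1, a microsomal glutathione transferase, with 13.6 ± 2.23 CPM in CIE+IL17 Ab and 7.10 ± 0.830 CPM in Air+IgG (adjusted p = 0.0379), and catalase (Cat), with 66.0 ± 2.88 CPM in CIE+IL17 Ab and 52.4 ± 3.20 CPM in Air+IgG (adjusted p = 0.04). Msra and Msrb2, which reduce oxidised methionine, fell, whereas the other family members in the list, Msrb1 and Msrb3, did not pass, at log2 fold changes of -0.08 (adjusted p = 0.74) and 0.50 (adjusted p = 0.262). Msra averaged 18.9 ± 5.13 CPM in CIE+IL17 Ab and 44.4 ± 6.38 CPM in Air+IgG (adjusted p = 0.0149), and Msrb2 averaged 10.9 ± 2.42 CPM in CIE+IL17 Ab and 18.9 ± 1.06 CPM in Air+IgG (adjusted p = 0.0231).

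The 7 calls became 0 when CIE+IL17 Ab replicate 2 was left out, and also 0 when Air+IgG replicate 2 or 3 was. The number was 3 when CIE+IgG replicate 1 was left out, and 1 when Air+IgG replicate 1 was. Without both Lars2-rich libraries it was 3. In other settings the number was higher than 7. It was 12 in DESeq2, 10 with the label number block, 10 without CIE+IL17 Ab replicate 1 and 9 without CIE+IgG replicate 3. The number of calls over all genes also varied with the setting. In the libraries numbered 54 to 60 none of the 7 genes was called, and all 7 kept their direction there. Gss, the glutathione synthetase, did not pass, with 31.9 ± 4.06 CPM in CIE+IL17 Ab and 22.2 ± 1.77 CPM in Air+IgG (adjusted p = 0.0547). Bach1, a repressor that competes with Nfe2l2 for its sites, had a log2 fold change of 0.36 (adjusted p = 0.0957), and Keap1 one of -0.17 (adjusted p = 0.241). None of the 11 genes of the Nfe2l2 regulator list and none of the 9 of haem and iron handling passed in any comparison. Over all genes the share was 0% for ethanol against air, 3.18% for antibody against CIE+IgG and 13.5% for antibody against air. Because the thalamus and habenula sum differs wherever CIE+IL17 Ab is compared, its part in these 9 gene calls was not tested.

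**Figure D5:**
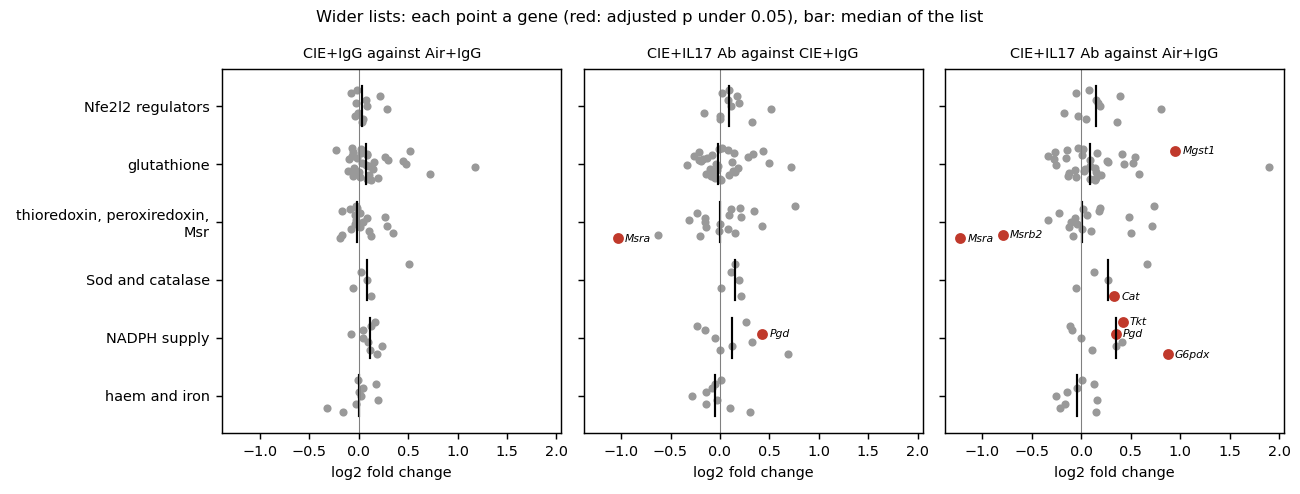
Log2 fold change of each of 86 further genes in 6 lists (points; red where the adjusted p is under 0.05) with the median of each list (bar), in the 3 comparisons. No gene is red for ethanol against air, Msra and Pgd are red for antibody against CIE+IgG, and 7 genes are red for antibody against air.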

How the data were processed

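Values were deposited by the authors as estimated counts (expected counts) for every gene and library, without normalization. The submitters' processing notes name STAR 2.5.1a, RSEM 1.3.0 and the GRCm38 build, and the libraries were strand-specific per the labels' protocols. The sources used here do not state the annotation release or a filter before deposit. Symbols, positions and exon lengths came from GENCODE M21 (14628 identifiers matched). Counts were rounded; edgeR 4.0.16 (filterByExpr, minimum count 10; TMM; glmQLFit with robust=TRUE) fitted all 9 libraries with a mean per group in R 4.3.3, with Benjamini-Hochberg adjustment over 14696 genes and a threshold of 0.05. The standard error is the fold change divided by the square root of F. Log2 CPM used a prior count of 2. Alternatives were DESeq2 1.42.0, its size factors, limma-voom 3.58.1, other filters and sets of libraries, and blocks.

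Members and lists were chosen with earlier results of these data known. Named genes were all 10 members, list genes that passed, and up to 2 per list otherwise; Slc3a2, and Gss and Keap1 for antibody against air, were chosen after their values were seen. Label numbers (37 to 39 and 54 to 60, meaning not given) served as a possible batch. No 2 libraries were identical. The series' design text gives 3 mice per group. On simulated counts the fits recovered most of the largest planted changes. All planted changes were larger than any fitted for the 10 genes, and smaller ones were not simulated. DESeq2 made more false calls there than the threshold allows. Marker lists other than those printed were computed and are not reported here. Errors of levels are SD over libraries.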

Additional observations from a re-analysis of the deposited data

How the results depend on the processing

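In 570 refits of the 10 genes (3 comparisons, 19 alternatives each) none passed the threshold; the lowest adjusted p was 0.0608, for Gclm for antibody against air with the label number block. The sign changed in 35 of the 570, all within 0.3 of 0 on the log2 scale, and 19 of the 30 gene comparisons kept their sign throughout. For Gclc, antibody against CIE+IgG, the log2 fold change was -0.002 in DESeq2, -0.003 with only the 2 groups compared and -0.038 without the 2 Lars2-rich libraries (-0.043 to 0.045 leaving out single libraries), and for antibody against air -0.015 without the Lars2-rich libraries (-0.009 to 0.117). In the libraries numbered 54 to 60, ethanol against air gave -0.008 for Nfe2l2, 0.001 for Srxn1 and -0.032 for Gpx1, antibody against CIE+IgG gave 0.035 for Gsr, and antibody against air gave -0.275 for Hmox1 (-0.156 to 0.417 leaving out single libraries). Without the Lars2-rich libraries, antibody against CIE+IgG gave 0.105 for Nqo1 (-0.502 to 0.131) and 0.013 for Gsr (-0.218 to 0.014). Leaving out single libraries, ethanol against air ran from -0.005 to 0.123 for Gclc, -0.026 to 0.206 for Gclm, -0.003 to 0.091 for Txnrd1, -0.031 to 0.028 for Srxn1 and -0.046 to 0.198 for Gpx1. The cause was not tested.

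Over all genes, 468 passed for antibody against CIE+IgG. The count was 1481 in DESeq2, 776 with the label number block, 1 with only the 2 groups compared, 1 in the libraries numbered 54 to 60, and 0 to 1313 leaving out single libraries. For antibody against air 1990 passed, with 1192 when only the 2 groups were compared, 2 in the libraries numbered 54 to 60, 1067 without the Lars2-rich libraries and 0 to 2305 leaving out single libraries. For ethanol against air 0 passed, and 6 did in DESeq2. With the replicate number as a block the counts were 14 for antibody against CIE+IgG and 571 for antibody against air, and 2 of the 7 wider-list calls for antibody against air and neither for antibody against CIE+IgG were kept. Libraries with the same replicate number correlated between -0.27 and 0.249 in their deviations from the group means. With so few libraries per group, these values do not decide whether the replicate numbers pair the libraries.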
